A study of Mus musculus with 15 samples.

Results

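The RNA of the alpha and beta chains of mouse MHC class II was followed in 15 RNA-seq libraries of 105K tumors. The members are the 6 rows of the deposited expression table with the symbols H2-AA, H2-AB1, H2-EB1, H2-EB2, H2-OA and H2-OB, chosen by symbol from 24891 genes, and all 6 are in the table. 105K cells are a Tsc2-deficient renal tumor line, and the tumors were grown under the skin of 6-week-old male wild-type C57BL/6J mice. 3 libraries were made in each of 5 groups. Bulk tumors carried a non-targeting control shRNA (sh-NC) or the shRNA sh-B7-H3 (1) against B7-H3, which the gene CD276 encodes. Sorted tumor cells came from tumors with the same control, with sh-B7-H3 (1), or with another shRNA to that mRNA, named sh-B7-H3 (2). All lines were puromycin-selected pools rather than single clones, the hosts kept their own immune system, and sorted cells were the unlabeled cells left after magnetic depletion of other cell types. The labels do not say that replicates came from separate mice, so p-values measure the spread between these libraries.

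MHC class II molecules are pairs of an alpha and a beta chain that carry peptides to the cell surface for CD4+ T cells. H2-AA and H2-AB1 encode the alpha and the beta chain of the A molecule (I-A), and H2-EB1 encodes the beta chain of the E molecule (I-E). H2-EB2 is a second, less studied E beta gene. H2-OA and H2-OB encode the chains of H2-O, which restrains the peptide exchange factor H2-DM and is known mainly from B cells and some dendritic cells. Dendritic cells, macrophages and B cells express class II at rest, and many other cells, epithelial tumor cells among them, can be induced to express it by interferon-γ through the coactivator CIITA.

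The 6 genes lie in the MHC on chromosome 17 (GRCm38, the build also called mm10). In the GENCODE annotation H2-Oa spans chr17:34092340-34095234, H2-Ob chr17:34238903-34254414, H2-Ab1 chr17:34257689-34269419, H2-Aa chr17:34282744-34287823, H2-Eb1 chr17:34305867-34316674 and H2-Eb2 chr17:34325665-34341412, with H2-Aa on the minus strand and the others on the plus strand. None of the 75-base words in their annotated transcripts is shared exactly with a transcript of another gene (0% for each of the 6 members), so reads of the sequenced length could be told apart between the chains wherever they match exactly.

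Class II promoters are known for conserved elements, among them the X box, which RFX factors bind, and the Y box, a reversed CCAAT element that NF-Y binds. CIITA acts through the proteins on them. The sequences before the start sites are shown because they tell whether the abundant and the rare chains share these letters. Promoters from RefSeq (GRCm38.p6) were matched by symbol for 5 of the 6 members, all but H2-Ab1. The 150 bases before the RefSeq start are given 5′ to 3′ on the gene's strand, at chr17:34287824-34287973 for H2-Aa, chr17:34305717-34305866 for H2-Eb1, chr17:34325525-34325674 for H2-Eb2, chr17:34092229-34092378 for H2-Oa and chr17:34238755-34238904 for H2-Ob. For H2-Eb2, H2-Oa and H2-Ob the RefSeq start lies inside the GENCODE span given above. Capitals mark GCAAC, letters of the X box, and TGATTGG, letters of the Y box, where they form a pair.

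H2-Aa: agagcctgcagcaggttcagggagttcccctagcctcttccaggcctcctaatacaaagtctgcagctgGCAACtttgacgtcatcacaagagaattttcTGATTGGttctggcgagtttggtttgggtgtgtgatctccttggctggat
H2-Eb1: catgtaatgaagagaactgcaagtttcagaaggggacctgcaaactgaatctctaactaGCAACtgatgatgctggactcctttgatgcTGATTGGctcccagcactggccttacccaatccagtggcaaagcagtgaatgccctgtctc
H2-Eb2: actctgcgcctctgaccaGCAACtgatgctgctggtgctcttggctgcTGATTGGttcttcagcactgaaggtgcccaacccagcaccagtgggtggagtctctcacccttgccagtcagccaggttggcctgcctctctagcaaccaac
H2-Oa: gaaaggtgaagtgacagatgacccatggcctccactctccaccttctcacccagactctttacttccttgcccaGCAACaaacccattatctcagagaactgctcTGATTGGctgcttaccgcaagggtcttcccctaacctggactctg
H2-Ob: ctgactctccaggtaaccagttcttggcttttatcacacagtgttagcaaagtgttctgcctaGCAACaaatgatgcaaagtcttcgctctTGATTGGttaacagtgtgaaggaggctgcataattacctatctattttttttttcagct

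All 5 sequences held GCAAC followed on the same strand by TGATTGG, with 23 to 26 bases between them. GCAAC began between 76 and 132 bases before the RefSeq start. A further copy of GCAAC in the H2-Eb2 sequence was left in lower case because it forms no such pair. The search took both strands of the 300-base promoters (250 bases before to 50 after the start) with 10 to 40 bases between the letters, and these settings were chosen after the sequences were seen. Of all 32851 promoters, 35.2% held GCAAC, 7.82% held TGATTGG and 95 (0.289%) held the pair. Promoters of H2-DMa, H2-DMb1 and H2-DMb2, whose products load class II with peptide, did not hold the pair in these exact letters. Those of H2-DMb1 and H2-DMb2 held TGATTGG, with gtaac and ttaac before it at a spacing within the range above. The search counted exact letters only, so it does not tell whether these promoters lack an X box. The H2-DMa promoters searched begin at chr17:34122582 and chr17:34125268, inside the annotated span of the gene (chr17:34119541-34139101). The pair therefore preceded chains that were abundant in these libraries and chains that were near the limit of detection, as the values that follow show.

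Levels are given as scaled FPKM, the deposited FPKM (fragments per length of transcript and depth of library) divided by 1 factor per library (0.65 to 1.18), and since they are per length, levels of different chains may be compared. The sums of FPKM ran from 435533 to 1544000 per library, of which 1 small RNA gene, MIR6236, took 6.01% to 79.7%. Its share was 17.2% to 79.7% in bulk, 6.24% to 51.6% in sorted sh-NC and 6.01% to 10.5% in sorted knockdown libraries. The methods name the RNeasy Plus Micro or the RNeasy Mini kit for sorted cells or bulk tumors. The part of library make-up or preparation in differences between materials was not tested. Read totals are not in the table, and relative depth, read from the spacing of low values, ran from 0.468 to 1. CD276, the target of the shRNAs, was at 34.0, 20.0 and 17.3 scaled FPKM in the sorted sh-NC libraries and at 7.29, 14.0 and 11.5 in those with sh-B7-H3 (1), a lower level without overlap that did not pass the test (log2 fold change -1.04 ± 0.29 SE, adjusted p = 0.0547, limma). It was at 23.3, 25.4 and 25.7 in the sorted libraries labelled sh-B7-H3 (2), and at 22.3, 17.8 and 24.4 in the bulk libraries labelled sh-B7-H3 (1) against 20.8, 23.2 and 23.5 in bulk sh-NC. For those 2 groups the RNA of the target did not differ past the threshold from sh-NC (log2 fold changes 0.12 and -0.07, adjusted p = 0.775 and 0.709, limma), and they are called by their labels. 1 sorted library stood apart. In the library labelled sorted sh-B7-H3 (2) replicate 1, all 10 leukocyte markers were higher than in each of the other 5 sorted knockdown libraries, with a sum of 208 against 10.7 to 16.1 scaled FPKM, and so were all 10 markers of T cells, all 10 of endothelial cells, 9 of 10 of dendritic cells, 9 of 10 of macrophages and 9 of 10 of B cells. Where leaving it out changed a call on the chains, the class II pathway list or the interferon-γ list, both values are given.

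In sorted tumor cells, the RNA of the 3 classical chains H2-AA, H2-AB1 and H2-EB1 was near the lower limit of the test with sh-NC and abundant in every knockdown library. H2-AA was at 3.91, 1.81 and 2.08 scaled FPKM with sh-NC, at 542, 216 and 240 with sh-B7-H3 (1) and at 522, 212 and 229 in the libraries labelled sh-B7-H3 (2). H2-AB1 was at 5.08, 1.65 and 2.11, then at 388, 196 and 181, and at 455, 242 and 243 in the same order of groups. H2-EB1 was lowest of the 3, at 2.27, 0.456 and 0.674 with sh-NC, at 172, 75.5 and 86.4 with sh-B7-H3 (1) and at 206, 84.8 and 91.5 with the other shRNA. Sorted knockdown and sorted sh-NC did not overlap for any of the 3 chains. Of all genes tested, 16.7% were higher without overlap with sh-B7-H3 (1), 20% in the libraries labelled sh-B7-H3 (2) and 13.6% with both. In both knockdown groups replicate 1 was the highest for each chain. That holds for the library labelled sh-B7-H3 (2) that stood apart and for sh-B7-H3 (1) replicate 1, where PTPRC (CD45, the common leukocyte surface protein) was at 0.158 scaled FPKM.

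With both shRNAs taken as 1 group of 6, the log2 fold change against sh-NC was 6.42 ± 0.35 (SE) for H2-AA, 6.19 ± 0.34 for H2-AB1 and 5.80 ± 0.36 for H2-EB1 (adjusted p = 1.15e-06, 1.10e-06 and 2.37e-06, limma). These are fold changes of 85.9, 72.9 and 55.7 on the scale of scaled FPKM plus 1, which understates changes from low levels. All 3 members that could be tested rose, where 12.6% of the 11424 genes tested did. H2-EB1, at 2.27, 0.456 and 0.674 with sh-NC, met the limit of 1 scaled FPKM in 3 libraries only through the knockdown libraries where it was high. Its place in this count therefore adds no separate support. H2-AA and H2-AB1 met the limit in sorted sh-NC alone. Each shRNA gave 3 of 3 as well, with 9.03% of genes higher for sh-B7-H3 (1) and 11.7% for the libraries labelled sh-B7-H3 (2). The single comparisons share the sh-NC libraries and are not independent of each other. Log2 fold changes were 6.45, 6.03 and 5.71 for H2-AA, H2-AB1 and H2-EB1 with sh-B7-H3 (1), and 6.4, 6.35 and 5.88 with the other. Without replicate 1 of both knockdown groups, a choice made after seeing the data, the 3 chains still passed, with log2 fold changes of 6.01, 5.86 and 5.42.

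**Figure D1:**
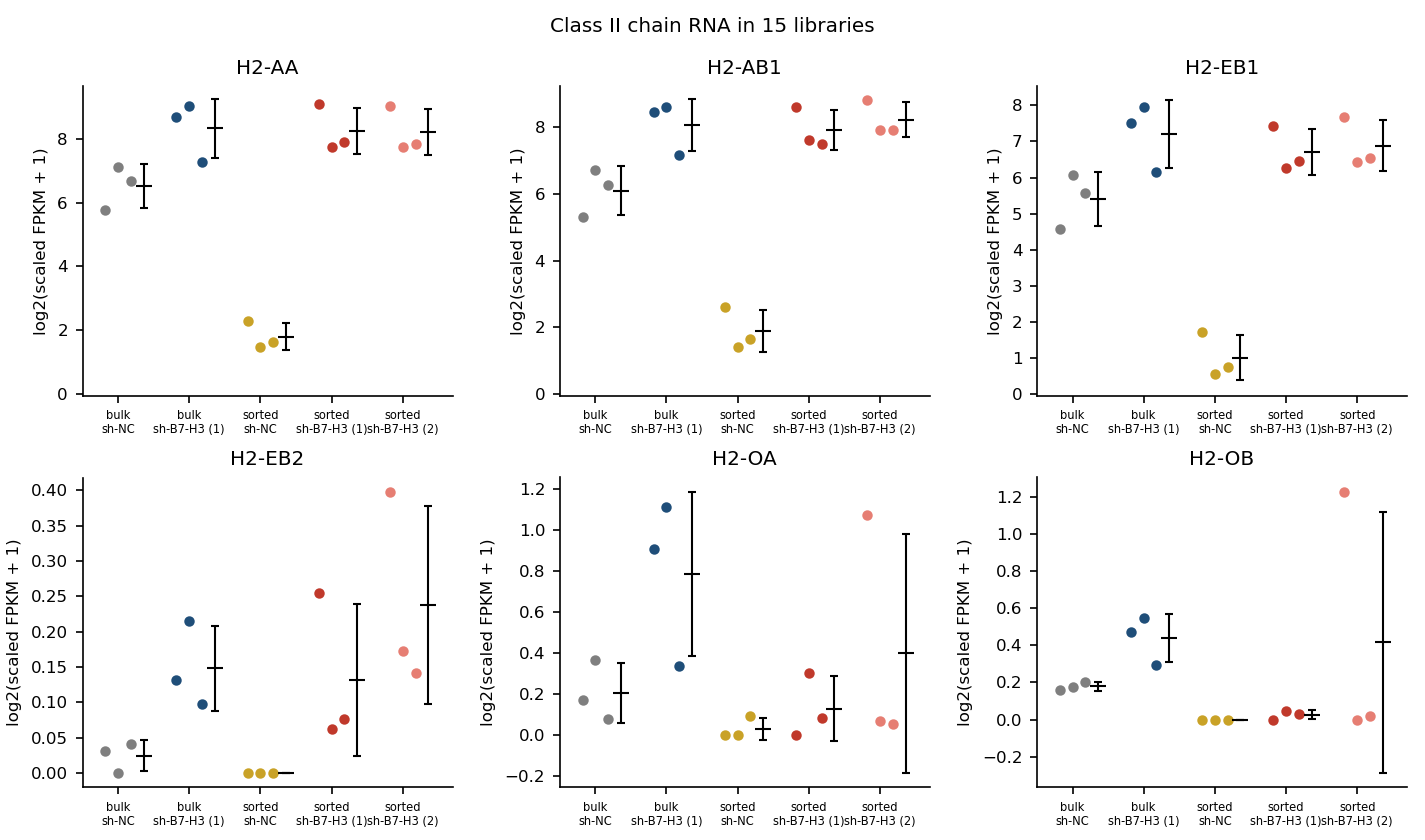
Levels of the 6 chains in each of 15 libraries, as log2 of scaled FPKM plus 1, with 1 panel per gene and its own vertical scale. Dots are libraries in replicate order, and the bar to the right of each group is its mean ± SD (n = 3). The 3 classical chains are low only in sorted sh-NC, while H2-EB2, H2-OA and H2-OB stay under 1.4 scaled FPKM everywhere.

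The shRNAs were then compared with each other. None of the 3 classical chains differed between sorted cells with sh-B7-H3 (1) and the libraries labelled sh-B7-H3 (2), whether by adjusted or by unadjusted p under 0.05 (limma; 3.4% of genes called in either direction). The differences in log2 level were 0.05 for H2-AA (95% interval -0.96 to 1.06), -0.32 for H2-AB1 (-1.12 to 0.48) and -0.17 for H2-EB1 (-1.10 to 0.76). These intervals leave room for differences of about a doubling. Replicate numbers of these 2 groups met the criterion for pairing, and with the replicate number as a block H2-AB1 alone was lower with sh-B7-H3 (1) (-0.32, adjusted p = 0.0353), in a fit that called 16.6% of genes.

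Chain stoichiometry was read as the ratio of FPKM within a library, which no scaling changes. The A beta chain ran close to the A alpha chain. H2-AB1 stood at 0.731, 0.762 and 0.743 of H2-AA in bulk sh-NC, at 0.857, 0.738 and 0.940 in bulk sh-B7-H3 (1), at 0.716, 0.909 and 0.756 in sorted sh-B7-H3 (1) and at 0.872, 1.14 and 1.06 in the sorted libraries labelled sh-B7-H3 (2). In sorted sh-NC it was at 1.30, 0.911 and 1.01. Bulk sh-NC lay below sorted sh-NC and below the sorted libraries labelled sh-B7-H3 (2) without overlap, a split that was not tested, and the groups of the 3 tests that follow overlapped. The log2 ratio differed by -0.25 between sorted knockdown and sorted sh-NC (exact two-sided permutation p = 0.25), by 0.17 between the bulk groups (exact permutation p = 0.3) and by -0.18 between bulk and sorted knockdown (exact permutation p = 0.197), with adjusted p = 0.417, 0.45 and 0.369 over the 15 ratio tests made.

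The E beta chain showed another ratio in bulk tumors than in sorted knockdown cells. H2-EB1 stood at 0.430, 0.475 and 0.454 of H2-AA in bulk sh-NC and at 0.446, 0.472 and 0.459 in bulk sh-B7-H3 (1). It stood at 0.317, 0.350 and 0.361 in sorted sh-B7-H3 (1) and at 0.394, 0.400 and 0.400 in the sorted libraries labelled sh-B7-H3 (2). All 6 bulk libraries were above all 6 sorted knockdown libraries. The mean log2 ratio was -1.13 ± 0.05 in bulk and -1.44 ± 0.14 in sorted knockdown cells (SD, n = 6 each), a difference of 0.31 (exact two-sided permutation p = 0.00216, the smallest that 6 against 6 can give, adjusted p = 0.0162). Leaving out any 1 library left the difference between 0.26 and 0.33, with an exact permutation p of 0.00216 each time. Bulk here holds sh-NC and sh-B7-H3 (1), sorted knockdown holds sh-B7-H3 (1) and (2), and sorted sh-NC is left out. The test therefore does not separate material from shRNA, and it treats libraries of different groups as interchangeable. The same holds for the other tests of bulk against sorted knockdown. How often ratios of other genes separate these libraries was not counted. Within sh-B7-H3 (1) the bulk and the sorted libraries did not overlap either, and the 2 sorted knockdown groups did not overlap with each other, but 3 against 3 cannot give an exact permutation p below 0.1 and these splits were not tested. In sorted sh-NC the ratio spread from 0.252 to 0.581, at levels of H2-EB1 of 0.456 to 2.27 scaled FPKM, and it did not differ from sorted knockdown (exact permutation p = 0.905).

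**Figure D2:**
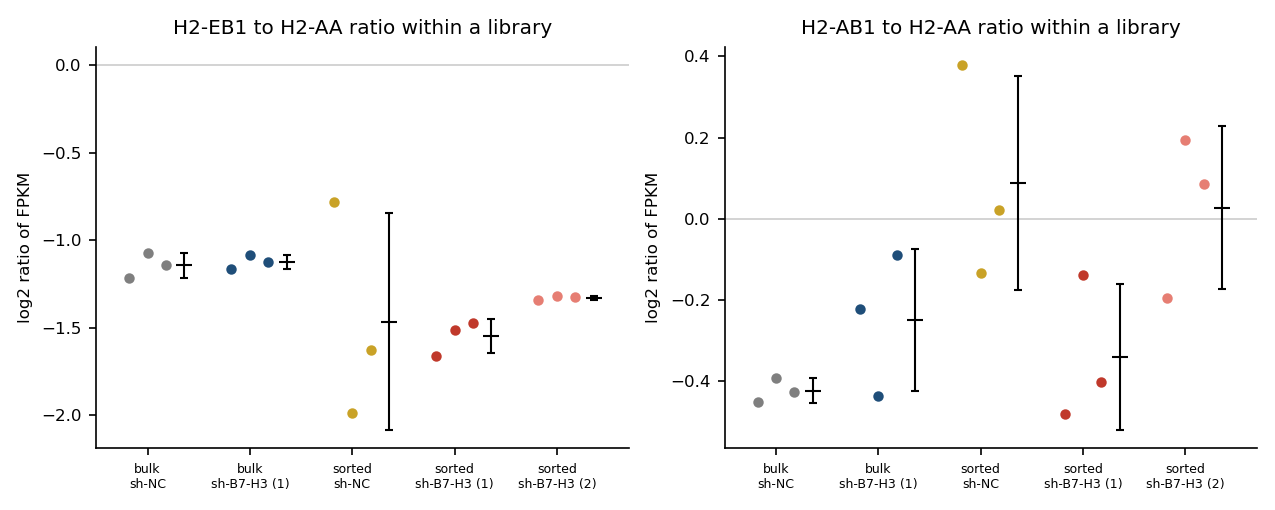
Ratio of H2-EB1 to H2-AA (left) and of H2-AB1 to H2-AA (right) within each library, on a log2 scale where 0 is an equal level per length. Dots are libraries and bars are the group mean ± SD (n = 3). Bulk libraries lie between -1.22 and -1.07 on the left and sorted knockdown libraries between -1.66 and -1.32, while on the right bulk sh-NC lies below sorted sh-NC and the sorted libraries labelled sh-B7-H3 (2).

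The partner of H2-EB1, the E alpha chain, was not measured at any level. C57BL/6 mice carry the b haplotype, which is known not to express E alpha. The table lists H2-EA-PS, its gene in this genome, at 0 in all 15 libraries, and H2-EB1 RNA was therefore present at up to 248 scaled FPKM with no alpha partner of its own among the 6 members. Summed per library, the beta chains H2-AB1 and H2-EB1 came to 1.16 to 1.40 times H2-AA in bulk and to 1.03 to 1.54 times in sorted knockdown cells. CD74, the invariant chain that occupies new class II molecules, stood at 2.40 to 3.60 times H2-AA in bulk and at 3.67 to 5.91 times in sorted knockdown cells, without overlap, and at 3.83 to 5.71 times in sorted sh-NC. That last ratio was looked at after the values were seen and was not tested.

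Tumor-cell expression was compared with that of whole tumors, which hold host cells too. With sh-NC the classical chains were higher in bulk tumors than in sorted cells. H2-AA was at 53.1, 138 and 102 scaled FPKM in bulk sh-NC, H2-AB1 at 38.8, 105 and 75.9 and H2-EB1 at 22.8, 65.6 and 46.4, each above all 3 sorted sh-NC libraries, as were 21.3% of genes. The log2 differences were 4.72 ± 0.35 (SE), 4.22 ± 0.41 and 4.40 ± 0.42 (adjusted p = 6.92e-05, 0.000303 and 0.000263, limma), so that all 3 tested members were higher where 10.4% of genes were. H2-EB1 met the limit of this test only through the bulk libraries. With sh-B7-H3 (1), none of the 3 differed between bulk and sorted libraries by adjusted or unadjusted p under 0.05, where 38.2% of genes did in either direction. The differences were 0.08 for H2-AA (95% interval -1.09 to 1.24), 0.17 for H2-AB1 (-0.81 to 1.15) and 0.50 for H2-EB1 (-0.61 to 1.61). H2-EB1 was higher in bulk without bulk sh-B7-H3 (1) replicate 3 (1.02, adjusted p = 0.0476).

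Leukocyte markers were compared beside the class II chains. In bulk tumors the 10 leukocyte markers summed to 166 to 350 scaled FPKM. They summed to 11.9 to 14.5 in sorted sh-NC and to 10.7 to 16.1 in 5 of the 6 sorted knockdown libraries. In sorted sh-NC most of that sum was CYTIP, at 8.14 to 8.79 scaled FPKM, which is no lower in sorted cells than in bulk, and PTPRC was at 0.0168 to 0.145. In the same 5 knockdown libraries PTPRC was at 0.066 to 0.158, against 5.03 to 11.1 in bulk tumors and 12.0 in the library that stood apart. The sum of the 3 classical chains was 487 to 1101 in those 5 libraries, 1183 in the library that stood apart, 115 to 309 in bulk sh-NC and 368 to 1160 in bulk sh-B7-H3 (1). High class II with PTPRC near 0 was seen in these 5 libraries only, all of them sorted knockdown cells. Other marker lists did differ between sorted groups. The 10 macrophage markers summed to 62.7 to 65.0 scaled FPKM in sorted sh-NC, to 131 to 165 in the same 5 knockdown libraries, to 487 in the library that stood apart and to 617 to 1166 in bulk tumors. Of the 7 that could be tested with both shRNAs against sh-NC, 3 rose and none fell, where 12.6% of genes rose. CSF1R (the receptor of a macrophage growth factor) rose by 2.18, CD14 by 1.49 and CD68 by 1.04 on the log2 scale (adjusted p = 0.00319, 0.000211 and 0.00096, limma). CSF1R, at 0.567 to 1.30 in sorted sh-NC, met the limit of the test only through the knockdown libraries. Without the library that stood apart the same 3 genes rose, by 1.88, 1.43 and 1.01. Most of the macrophage sum was CD68 and CD14, at means of 29.8 and 26.1 in sorted sh-NC and 65.0 and 75.9 in sorted sh-B7-H3 (1). ADGRE1 was at 0.0185 to 0.182 and at 0.125 to 0.293 in these groups, against 7.28 to 17.3 in bulk tumors. Means of MRC1 and MERTK were lower in sorted sh-B7-H3 (1) (0.109 and 0.0308) than in sorted sh-NC (0.184 and 0.0700). The complement gene C1QA, abundant in macrophages, was at 2.39 to 2.85 scaled FPKM in sorted sh-B7-H3 (1), at 108 in the library that stood apart and at 0.863 and 0.873 in the remaining pair with that shRNA, at 1.38 to 2.73 in sorted sh-NC and at 159 to 355 in bulk tumors. The T cell markers summed to 0.551 to 0.954 in sorted sh-NC, to 1.38 to 2.17 in the 5 libraries and to 25.8 in the one that stood apart. In sorted sh-NC and sorted sh-B7-H3 (1) most of that sum was LCK, at 0.380 to 0.718 and at 0.892 to 1.08. Markers of renal epithelial tumor cells were higher too, with sums of 1248 to 1403 in sorted sh-NC and of 2269 to 2653 in the 6 knockdown libraries. With both shRNAs 5 of 10 rose and none fell, where 12.6% of genes rose. The part of these cells in the class II values was not tested.

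As a single measure, the classical chains were divided by the leukocyte markers within each library. On a log2 scale this was 5.03 ± 1.30 in sorted knockdown cells (SD, n = 6), -1.10 ± 0.65 in sorted sh-NC (n = 3), 1.56 ± 0.36 in bulk sh-B7-H3 (1) and -0.10 ± 0.62 in bulk sh-NC (n = 3 each). Sorted knockdown cells were above sorted sh-NC by 6.13, or by 6.64 without the library that stood apart. Between sorted groups this ratio repeats the change of the chains, since the marker sums there overlap outside that library and are mostly CYTIP, and between bulk and sorted libraries it follows the depletion of leukocytes, so it is given as a description. Bulk sh-B7-H3 (1) was above bulk sh-NC by 1.66 without overlap, with an exact permutation p of 0.1, which is the smallest that 3 against 3 allows. In a bulk tumor, fewer cells of a type and less RNA per cell cannot be told apart, and a bulk library does not tell which cells its class II RNA came from.

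**Figure D3:**
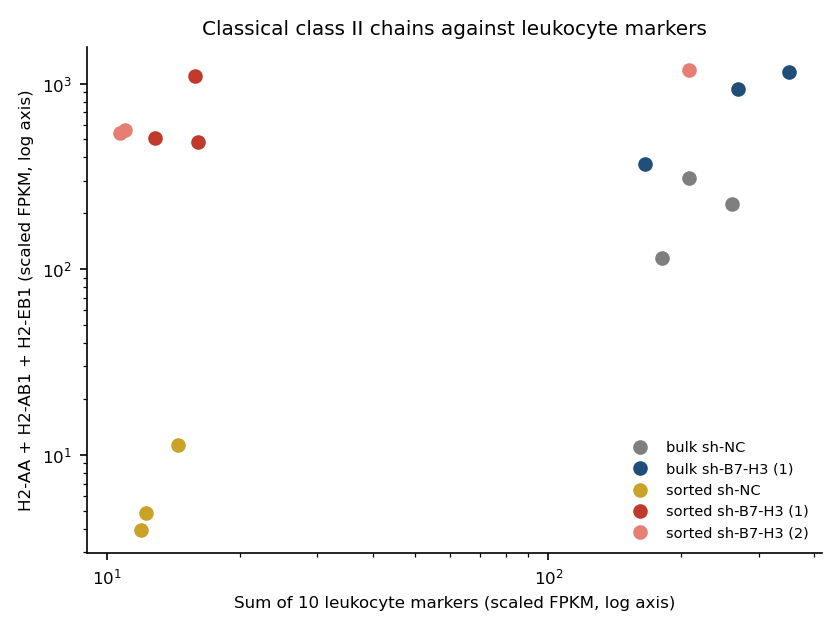
Sum of the 3 classical chains against the sum of 10 leukocyte markers, both in scaled FPKM on log axes, with 1 dot per library. Bulk libraries lie to the right between 166 and 350 on the marker axis, 5 sorted knockdown libraries lie at the upper left between 10.7 and 16.1, and 1 sorted library labelled sh-B7-H3 (2) lies at 208 among the bulk tumors.

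Within bulk tumors, the classical chains were higher with sh-B7-H3 (1), close to the threshold of the test. H2-AA was at 408, 525 and 153 scaled FPKM, H2-AB1 at 350, 387 and 144 and H2-EB1 at 182, 248 and 70.4, so that replicate 3 was the lowest for all 3 and still above every bulk sh-NC library. Of all genes, 24.4% were higher without overlap in this comparison. The log2 fold changes were 1.81 ± 0.51 (SE) for H2-AA, 1.98 ± 0.47 for H2-AB1 and 1.81 ± 0.53 for H2-EB1 (adjusted p = 0.0474, 0.0298 and 0.0516, limma). 2 of the 3 tested members rose, where 12.8% of genes did. The count was 0 with the replicate block and 0 without sh-NC replicate 1, sh-NC replicate 3 or sh-B7-H3 (1) replicate 1. It was 1 without sh-NC replicate 2 or sh-B7-H3 (1) replicate 2 and 3 without sh-B7-H3 (1) replicate 3. Leukocyte markers summed to 269, 350 and 166 scaled FPKM in the bulk sh-B7-H3 (1) libraries and to 181, 208 and 261 in bulk sh-NC, and T cell markers to 22.9, 21.8 and 6.85 against 2.84, 3.20 and 2.81. Dendritic cell markers summed to 21.6, 30.5 and 13.3 against 11.4, 13.6 and 14.5, and fibroblast markers to 861, 694 and 430 against 144, 260 and 207, with 6 of 8 fibroblast markers called higher. In each of these lists the lowest bulk sh-B7-H3 (1) value was in replicate 3, as for class II, and macrophage and endothelial markers did the same. Replicate 3 was instead the highest for the sum of B cell markers, with 30.3, 31.2 and 32.4 against 38.6, 42.0 and 39.0. Most of that sum was BLNK, at 28.9, 29.0 and 30.9 against 36.7, 40.9 and 37.2. BLNK was also at 23.2 to 46.9 in sorted cells, so the sum says little about B cells. Replicate 3 was also the highest for renal epithelial tumor cell markers, with 1726, 1472 and 1768 against 1076, 1185 and 1230. Of these, 4 of 10 were called higher. The part of any of these cells in the result was not tested.

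As a fold change, the effect of sh-B7-H3 (1) was larger in sorted cells than in bulk tumors, from unlike starting levels. Mean H2-AA went from 2.60 to 332 scaled FPKM in sorted cells and from 97.8 to 362 in bulk tumors. Mean H2-AB1 went from 2.95 to 255 and from 73.3 to 294, and mean H2-EB1 from 1.13 to 111 and from 44.9 to 167. The added level was not larger in sorted cells for H2-EB1. The interaction was 4.64 ± 0.70 (SE) for H2-AA, 4.05 ± 0.67 for H2-AB1 and 3.90 ± 0.73 for H2-EB1 on the log2 scale (adjusted p = 0.0192, 0.0325 and 0.0451, limma), which is 3 of 3 members where 0.249% of genes were higher. The size was 3.38 to 5.02 whichever library was left out, but the calls were not as steady. None of the 3 passed without bulk sh-NC replicate 3, sorted sh-NC replicate 2, sorted sh-NC replicate 3 or sorted sh-B7-H3 (1) replicate 3, and 1 passed without bulk sh-NC replicate 2, without sorted sh-B7-H3 (1) replicate 1 or 2 and with the replicate block.

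**Figure D4:**
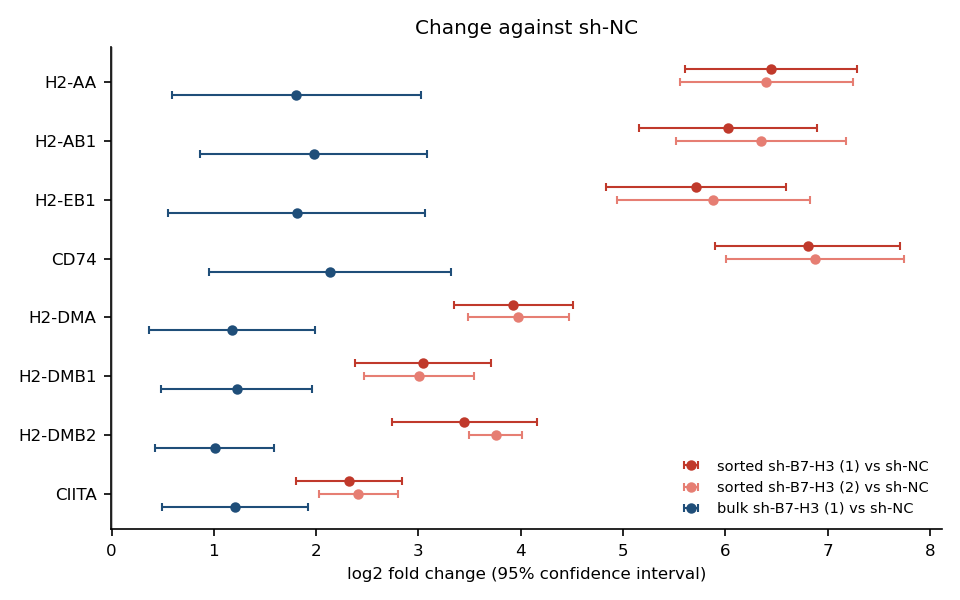
Log2 fold change against sh-NC with its 95% confidence interval (limma) for the classical chains and the class II pathway genes CD74, H2-DMA, H2-DMB1, H2-DMB2 and CIITA, in sorted cells with either shRNA and in bulk tumors with sh-B7-H3 (1). The classical chains lie at 5.71 to 6.45 in sorted cells and at 1.81 to 1.98 in bulk tumors.

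H2-EB2, H2-OA and H2-OB never reached the limit of 1 scaled FPKM in 3 libraries of a comparison and were in no fit across genes. Their values are whole multiples of 1 smallest step per gene and library (within 0.15 of a step), and a step was taken as 1 read. H2-EB2 had 0 reads in all 3 sorted sh-NC libraries, 17, 5 and 7 in sorted sh-B7-H3 (1) and 25, 10 and 10 in the libraries labelled sh-B7-H3 (2). These are 0.194, 0.0445 and 0.0541, and 0.318, 0.127 and 0.103 scaled FPKM. All 6 knockdown libraries were above the sh-NC libraries (exact two-sided permutation p = 0.0476, adjusted p = 0.2 over 12 such tests of the rare chains), with a mean of at least 3.55 times the level that 3 reads would give in the shallowest sh-NC library. In bulk tumors it had 2, 0 and 2 reads with sh-NC and 7, 13 and 4 with sh-B7-H3 (1).

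H2-EB2 made up little of the E beta RNA everywhere. It was 0.108% ± 0.041 of H2-EB1 plus H2-EB2 in sorted knockdown cells (SD, n = 6) and 0.0630% ± 0.036 in bulk tumors (n = 6), which did not differ past the threshold (exact permutation p = 0.0584, adjusted p = 0.146). It was 0% in the sorted sh-NC libraries. The exact permutation p against knockdown was 0.0119 (adjusted p = 0.0446, or 0.0714 where a two-sided p is taken as double the one-sided p, a definition tried after seeing the data), but at the H2-EB1 levels of sh-NC the share of the knockdown cells would be 0.000495 to 0.00246 scaled FPKM, under the 0.0238 to 0.0394 that 3 reads give, so a change of the share was not detectable at this depth.

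The H2-O chains were followed in the same way. H2-OB had 8, 8 and 8 reads in bulk sh-NC (0.115, 0.132 and 0.152 scaled FPKM) and 22, 29 and 10 in bulk sh-B7-H3 (1) (0.389, 0.460 and 0.226). It had 0 in each sorted sh-NC library, 0, 3 and 2 in sorted sh-B7-H3 (1), and 82, 0 and 1 in the libraries labelled sh-B7-H3 (2). H2-OA had 3, 6 and 1 reads in bulk sh-NC, 17, 25 and 4 in bulk sh-B7-H3 (1), 0, 0 and 2 in sorted sh-NC, 0, 7 and 2 in sorted sh-B7-H3 (1), and 23, 1 and 1 in the libraries labelled sh-B7-H3 (2). The highest value of the sorted libraries, for both chains, was in the library that stood apart. Without it the remaining 5 knockdown libraries held 0 to 7 reads of H2-OA and 0 to 3 of H2-OB, although their H2-AA was at 212 to 542 scaled FPKM. Neither chain passed the test between sorted knockdown and sorted sh-NC (exact permutation p = 0.488 for H2-OA and 0.452 for H2-OB, and 0.554 and 0.286 without the library that stood apart). Between bulk and sorted libraries with sh-B7-H3 (1) both chains were higher in bulk without overlap, with an exact permutation p of 0.1, the smallest possible, and so were 29.6% of the genes tested across the table.

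As a share of all 6 chains, H2-OA plus H2-OB was 0.141% ± 0.038 in bulk tumors and 0.0491% ± 0.079 in sorted knockdown cells (SD, n = 6 each), with 0.206% in the library that stood apart and at most 0.0552% in the other 5. In sorted sh-NC it was 0%, 0% and 1.32%, the last from 2 reads of H2-OA at low totals of the chains. The difference between bulk and sorted knockdown had an exact permutation p of 0.0216, and its adjusted p of 0.0649 did not pass. Without the library that stood apart it was 0.123 percentage points and the exact permutation p was 0.00216. Of the 10 B cell markers, 9 were higher in that library than in the other 5 sorted knockdown libraries, and they differed among themselves in bulk tumors. MS4A1 (CD20) was at 1.86 scaled FPKM there and at 0 to 0.05 in the other 14 libraries. CD22 was at 0.809 there, at 0.329 to 0.724 in bulk tumors and at 0 to 0.026 in the other sorted libraries, and CD79B was at 2.03, at 0.208 to 0.643 and at 0 to 0.087 in the same order. PAX5 was at 0.599, at 0.179 to 0.992 and at 0.138 to 0.672 in that order. BLNK, at 23.2 there, was lower than in bulk tumors (28.9 to 40.9) and in the other sorted libraries (24.0 to 46.9). Dendritic cell markers summed to 42.6 in that library, to 11.4 to 30.5 in bulk tumors and to 1.62 to 2.59 in the other sorted libraries. Most of the sum in that library was CD83, at 26.4, and only CD83 and CCR7 of this list were above every bulk library there. The part of B cells and dendritic cells in the H2-O values was not tested.

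**Figure D5:**
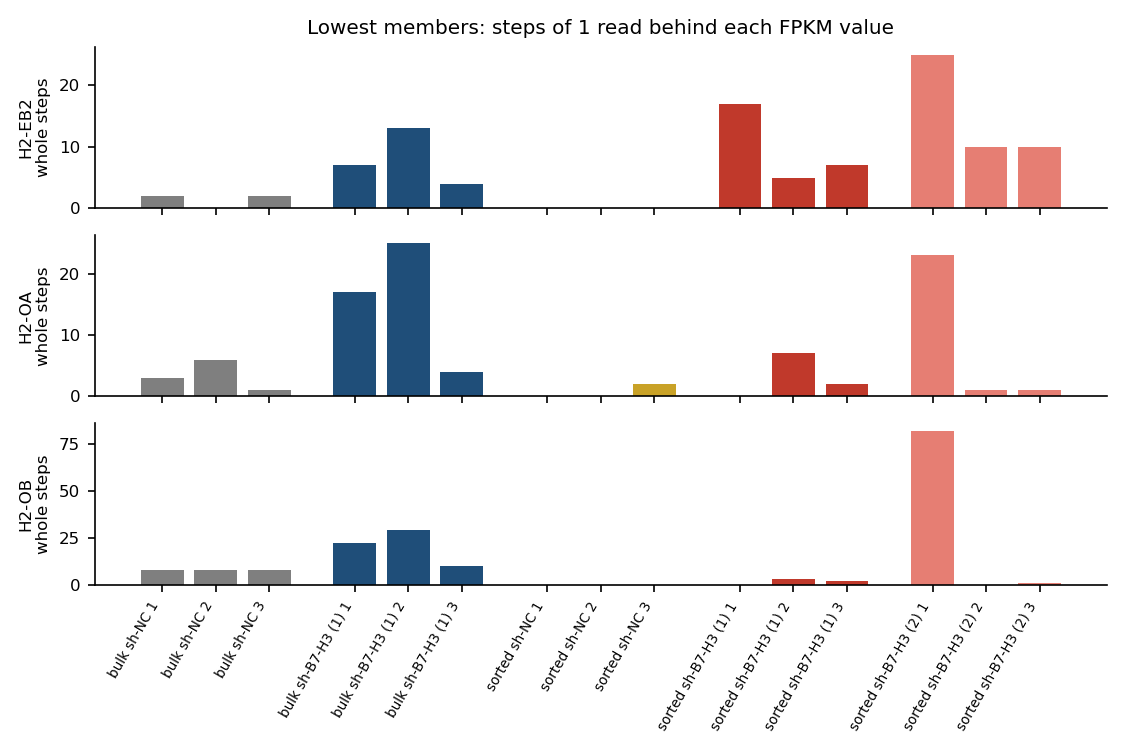
Reads behind the values of H2-EB2, H2-OA and H2-OB in each of 15 libraries, counted as whole steps of FPKM with 1 step taken as 1 read. H2-EB2 has 5 to 25 in every sorted knockdown library and 0 in sorted sh-NC, whereas H2-OB has 82 in 1 sorted library labelled sh-B7-H3 (2) and 0 to 3 in the other sorted libraries.

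Other genes of the class II pathway rose with the classical chains in sorted cells, with the largest changes in the invariant chain, H2-DMA, CTSS and H2-DMB2. Of a list of 24 symbols, 19 are in the table and 18 were tested with both shRNAs against sh-NC. 8 rose and none fell, where 12.6% of all genes tested rose. The median log2 fold change over the list was 0.31 against 0.01 over all genes tested. The largest was CD74 at 6.84 (22.3, 8.30 and 7.96 scaled FPKM with sh-NC, and 1114 to 1988 in the 6 knockdown libraries), and the smallest was NFYA, a subunit of NF-Y, at 0.40. The chains of the peptide exchange factor rose too, H2-DMA by 3.95, H2-DMB1 by 3.02 and H2-DMB2 by 3.60. CIITA rose by 2.37, from 0.0221 to 0.127 scaled FPKM with sh-NC to 3.38 to 6.88, and the lysosomal proteases CTSS and CTSB, which trim the invariant chain or its cargo, by 3.63 and 0.54. CIITA, H2-DMA (0.226 to 0.503 with sh-NC) and H2-DMB2 (0.972 to 1.11 with sh-NC) met the limit of the test only through the knockdown libraries. Their places in this count therefore add no separate support. RFX5, RFXAP, RFXANK, NFYB, NFYC and CREB1 were among the 10 that did not pass. Without the library that stood apart 6 rose, and NFYA and CTSB no longer passed (adjusted p = 0.0593 and 0.0714, limma).

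In bulk tumors 6 of the 18 rose with sh-B7-H3 (1) and none fell, where 12.8% of genes rose, with a median of 0.30 against 0.02. CD74 was again the largest at 2.14, and CREB1 was the smallest at 0.52. CIITA rose by 1.20, H2-DMB1 by 1.23 and H2-DMB2 by 1.01, while H2-DMA, at 1.18, missed the threshold (adjusted p = 0.051, limma). CIITA, at 0.387 to 0.727 scaled FPKM in bulk sh-NC, met the limit of this test only through the bulk sh-B7-H3 (1) libraries. Its place in this count therefore adds no separate support. Between materials the H2-DM chains did not all stand alike. With sh-B7-H3 (1), H2-DMB2 was lower in bulk than in sorted cells by 1.10 on the log2 scale (adjusted p = 0.0409), while H2-DMA was at -0.16 and H2-DMB1 at -0.81 (adjusted p = 0.729 and 0.104, limma).

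Of 10 genes of interferon-γ signalling, 9 were tested. With both shRNAs in sorted cells 5 rose and 1 fell, where 12.6% of genes rose and 7.92% fell, with a median log2 fold change of 0.43 against 0.01. SOCS1, at 0.946 to 1.27 scaled FPKM in sorted sh-NC, met the limit of this test only through the knockdown libraries. IRF1, a transcription factor that interferon-γ induces, was the largest at 2.87, and JAK1, a kinase of the receptor, fell by 0.44. Without the library that stood apart 5 rose and none fell (JAK1 at -0.43, adjusted p = 0.0877, limma). IFNG itself was listed above 0 in 4 libraries, at 0.724 scaled FPKM in the sorted library that stood apart, at 0.174 and 0.078 in bulk sh-B7-H3 (1) and at 0.0404 in bulk sh-NC, and at 0 in the other 11. In bulk tumors 4 of 9 rose with sh-B7-H3 (1), where 12.8% of genes did, with IRF1 the largest at 1.38 and IFNGR2 the smallest at 0.40.

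The genes whose pattern was most like that of H2-AA over the 15 libraries, by Pearson's r of log2(scaled FPKM + 1) among 12193 genes, were H2-EB1 (0.997), H2-AB1 (0.996), H2-DMA (0.994), NEURL3 (0.990) and CD74 (0.988). For H2-OB they were CD69 (0.978), MS4A4B (0.961), CCL3 (0.934), CD2 (0.933) and RASGEF1B (0.927), none of them a class II gene. H2-OA was at 0.871 to H2-OB and at 0.514 to H2-AA, and H2-EB2 was at 0.693 to H2-AA. These correlations are descriptions over libraries that share groups and scaling. H2-OB was highest in the library that stood apart, and Spearman's rho to H2-OB was between 0.887 and 0.932 for the same 5 genes.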

How the data were processed

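RNA from bulk 105K tumors and sorted 105K tumor cells was sequenced as mRNA libraries, 3 in each of 5 groups. The methods name the VIPER pipeline, and the submitters' processing notes name the build mm10. The aligner and the annotation are not given in the sources used here. The authors deposited FPKM values for 24917 entries, in a table named for counts, and log2 values of FPKM plus 1 for 1000 genes, of which 999 were matched and differed by at most 8.91e-08. That log2 table was not used further. 26 entries whose symbols had become dates were left out.

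Each library was scaled by a median-ratio factor, computed over 9872 genes. Genes with at least 1 scaled FPKM in 3 libraries of a comparison were tested on log2(scaled FPKM + 1) with limma 3.58.1 (R 4.3.3) and a mean-variance trend, with only the groups compared in the fit. P-values were adjusted by Benjamini-Hochberg over the genes tested, with a threshold of 0.05. Ratios within libraries and rare chains were compared by exact two-sided permutation tests, counting splits with at least the absolute difference observed, and adjusted over 15 and 12 tests. The fits were tested on simulated data. Python 3.11.15, numpy 2.4.6 and pandas 2.3.3 were used.

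Named genes were the 6 chains, fixed lists of class II pathway and interferon-γ signalling genes (with the largest and smallest change called), marker lists, CD276, and the 5 genes most like H2-AA and H2-OB. CTSS, CTSB, CYTIP, CSF1R, CD14, CD68, C1QA, ADGRE1, MRC1, MERTK, LCK, MS4A1, CD22, CD79B, PAX5, BLNK, CD83, CCR7, SOCS1 and the genes listed as not passing were named after their values were seen. The members and lists were chosen with earlier results of these data known. Same-numbered libraries of sorted sh-B7-H3 (1) and (2) deviated together (correlations 0.209 to 0.23 over genes), which counted as pairing. Those of the other groups compared did not all exceed 0.1. Read totals are unknown, so precision in reads is given only for the rare chains, for which 3 reads were the floor, and it covers counting error only. The alternatives were FPKM as deposited, a pseudocount of 0.1, no filter, a replicate block, all groups in 1 fit, and each replicate left out. Lists and rare chains without the library that stood apart were added after seeing the data.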

Additional observations from a re-analysis of the deposited data

Results flagged for a closer look

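In the 6 sorted knockdown libraries, 11 quantities were screened for 1 library far from the others, and 4 were set apart, all in the library labelled sorted sh-B7-H3 (2) replicate 1. Chance sets apart about 1 in 20 such groups. H2-OA was at 1.10 scaled FPKM there against 0.235 in the next highest, and H2-OB at 1.34 against 0.0344. The share of H2-OA plus H2-OB in all 6 chains was 0.206% against 0.0552%. The log2 ratio of the classical chains to leukocyte markers was 2.51, the lowest, against 4.92 in the next. H2-AA, H2-AB1 and H2-EB1 were not set apart in that library.

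The effect of sh-B7-H3 (1) differed between sorted cells and bulk tumors, by an interaction test in limma, for H2-AA by 4.64, for H2-AB1 by 4.05 and for H2-EB1 by 3.90 on the log2 scale (adjusted p = 0.0192, 0.0325 and 0.0451). With 1 library left out the largest adjusted p were 0.0672, 0.0918 and 0.139.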

How the results depend on the processing

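With FPKM as deposited the difference between bulk and sorted sh-B7-H3 (1) turned to -0.13 for H2-AB1 and -0.23 for H2-AA, neither called. The cause of this and the following changes was not tested. Without a filter the chains called were 0 in bulk sh-B7-H3 (1) against sh-NC, against 2 as reported, and 1 for the interaction, against 3. Without a filter, H2-EB2, H2-OA and H2-OB also entered the fits, and H2-OB was called higher in bulk than in sorted cells with sh-B7-H3 (1), 1 chain called against 0, and with sh-NC. With the replicate block 1 chain was called between the shRNAs (0 without), 0 in bulk tumors and 1 for the interaction, in groups whose numbers pair only for the 2 sorted shRNAs. The block changed no other count of chains called. Leaving out 1 replicate gave 0 to 3 chains called in bulk tumors, 0 to 1 between bulk and sorted sh-B7-H3 (1) and 0 to 3 for the interaction.

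The sorted comparisons with sh-NC kept 3 of 3 chains called under every alternative run. With 1 replicate left out, the differences between the shRNAs ran from -0.37 to 0.46 for H2-AA and from -0.53 to 0.24 for H2-EB1, and those between bulk and sorted sh-B7-H3 (1) from -0.0931 to 0.617 for H2-AB1 and from -0.28 to 0.61 for H2-AA. A pseudocount of 0.1 turned the log2 ratio of H2-EB1 to H2-AA in sorted knockdown against sh-NC to -0.10, the H2-EB2 share to -10.5 percentage points there, to -0.197 between the bulk groups and to 0.0598 between bulk and sorted knockdown, and the H2-O share in sorted cells to -3.74. Shares of rare chains at low totals therefore depend on it. With 1 replicate left out, the first ratio ran from -0.23 to 0.37 in sorted cells and from -0.0166 to 0.0544 in bulk tumors, and the H2-O share from -0.610 to 0.0492 and from -0.0369 to 0.0218. The H2-EB2 share ran from -0.00811 to 0.0407 between the bulk groups and from -0.0554 to -0.0329 between bulk and sorted knockdown, and the H2-O share from 0.0779 to 0.123 there, with an exact permutation p of up to 0.0563. Depth limits H2-EB2, H2-OA and H2-OB, which rest on 0 to 82 reads a library.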
